A study of Mus musculus with 6 samples.

Results

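*Apoe*, *Apoc1* and *Apoc2* of the apolipoprotein E cluster, together with the liver X receptors (LXRs) and the best known LXR target genes of macrophages, were examined in bone marrow-derived macrophages (BMDMs) lacking *Scd2*, which encodes a stearoyl-CoA desaturase. The set holds 10 genes, *Apoe*, *Apoc1*, *Apoc2*, *Abca1*, *Abcg1*, *Pltp*, *Mylip*, *Lpcat3*, *Nr1h3* and *Nr1h2*, of 40481 genes in the deposited count table, and all 10 were among the 14778 genes with enough counts to test. It was chosen by the opposite differences of *Apoe* and *Abcg1* between the genotypes in these same libraries, so the differences of its members are a description. No p-value is given for them, and their calls in the fit over all genes are counted only beside the share of all genes called.

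RNA was sequenced from 3 wild-type and 3 *Scd2*-m/-m samples of unstimulated BMDMs, with 1 poly(A)-selected library each. *Scd2*-m/-m mice carried floxed *Scd2* alleles and lysozyme M-Cre, which is active in myeloid cells, and the study used adult mice of both sexes. The sources used here do not say whether the wild-type mice carried Cre, or give the sex or number of mice behind a library. Marrow cells of both genotypes were cultured for 5 to 6 days with 10% CMG-conditioned medium, a source of macrophage colony-stimulating factor, and then kept in 2%. Because the labels do not say that replicates came from separate mice, p-values measure only the spread between these samples, which may be technical.

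Each library held between 46285176 and 57629638 gene counts. *Scd2* itself had counts-per-million (CPM) values, scaled for library size, of 62.7 to 77.8 in wild-type libraries and 38.0 to 59.5 in *Scd2*-m/-m libraries, which did not overlap, with a log2 fold change of -0.59 ± 0.19 (SE, n = 3 per genotype) that did not pass the test (false discovery rate, FDR, of 0.100 by edgeR). The *Scd2*-m/-m mean was 66.2% of the wild-type mean, so the libraries were not free of *Scd2* transcript. Macrophage transcripts were abundant in every library, with *Csf1r*, the receptor for macrophage colony-stimulating factor, at 6740 to 7310 CPM in wild-type and 5344 to 5482 CPM in *Scd2*-m/-m libraries. The summed level of 10 macrophage markers was 39904 to 41251 CPM in wild-type and 24313 to 24733 CPM in *Scd2*-m/-m libraries, and most of that gap was *Lyz2*, the lysozyme gene that carries the Cre insertion, at 22099 to 23228 against 8661 to 9374 CPM. Of these 10 markers 4 passed the test as lower and 1 as higher, and *Adgre1*, which encodes F4/80, was at 2805 to 3735 against 2169 to 2580 CPM. The sum of 10 monocyte and progenitor markers was 86.3 to 116 CPM in wild-type and 169 to 223 CPM in *Scd2*-m/-m libraries, and 6 of the 10 passed the test as higher. The 6 markers of dividing cells summed to 38.2 to 46.9 against 109 to 115 CPM, and 6 of 6 were higher. Genes within the macrophage and monocyte lists did not all move alike. *Cd68* was at 2095 to 2205 against 2372 to 2692 CPM. The monocyte gene *Vcan* was at 29.1 to 49.7 against 17.5 to 25.3 CPM, though 0 genes of its list passed the test as lower. Several macrophage markers were thus lower, and most monocyte and progenitor markers and the cell cycle markers higher, in *Scd2*-m/-m libraries. The 12 neutrophil markers summed to 183 to 192 and 161 to 193 CPM, and of 9 tested 5 were higher and 1 lower. Most of that sum was *Csf3r*, at 157 to 168 against 127 to 149 CPM, whereas the granule protein gene *S100a9* had 2.48 to 3.18 against 7.24 to 10.3 CPM and *Ly6g* no more than 0.0358 CPM. The 6 markers of adipocytes and hepatocytes, other sources of apolipoproteins, summed to 12.8 to 19.0 against 21.2 to 25.4 CPM, nearly all of it *Fabp4*, the 1 gene of the list tested, which was higher. *Adipoq* was at 0 in every library, and *Alb* and *Ttr* were at no more than 0.0516 CPM. These marker levels differed together with the genes described below, and their part in those differences was not tested.

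LXRα and LXRβ, encoded by *Nr1h3* and *Nr1h2*, are nuclear receptors that bind oxysterols and act on DNA as heterodimers with retinoid X receptors (RXRs). In macrophages loaded with cholesterol they switch on genes that move it out of the cell and onto lipoproteins, among them the exporters *Abca1* and *Abcg1* and the carrier *Apoe*. The LXR-RXR dimer binds a pair of AGGTCA repeats set 4 bases apart, called DR4.

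The sequences just before the start sites of *Apoe* and *Abca1*, both known LXR targets, are shown first. They are the 250 bases upstream of the start in RefSeq (build GRCm38.p6, both on the minus strand, written 5′ to 3′ along the gene), at chr4:53159896-53160145 for *Abca1* and chr7:19699189-19699438 for the most upstream of 3 *Apoe* start sites. Capitals mark a match to DR4.
Abca1: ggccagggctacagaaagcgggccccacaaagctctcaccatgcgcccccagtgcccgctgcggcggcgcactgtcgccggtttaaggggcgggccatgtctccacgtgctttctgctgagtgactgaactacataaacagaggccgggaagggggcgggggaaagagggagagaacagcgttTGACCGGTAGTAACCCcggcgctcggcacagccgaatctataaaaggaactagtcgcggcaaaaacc
Apoe: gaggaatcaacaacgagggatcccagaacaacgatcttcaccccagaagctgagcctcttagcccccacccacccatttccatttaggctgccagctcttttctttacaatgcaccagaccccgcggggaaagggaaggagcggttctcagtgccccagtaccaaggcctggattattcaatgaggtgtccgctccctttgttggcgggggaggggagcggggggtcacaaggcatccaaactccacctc

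A match was counted where no more than 3 of the 12 letters of 2 AGGTCA copies, 4 bases apart, differed on either strand. RefSeq windows of 300 bases (250 before and 50 after a start site) were given for 8 of the 10 genes, 11 windows in all, and those of *Abcg1* and *Apoc1* were not analysed here. Only the *Abca1* window held a match, beginning 67 bases before its start with 3 letters differing, and the best stretch in the first *Apoe* window differed at 4. Of 32851 windows of the same length, 21.9% held such a match, so a match at this looseness is common, and the letters alone say nothing on whether a receptor binds there. Sequence outside the windows was not searched, and a link between a match and the difference between genotypes was not tested.

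The genes differed widely in level in wild-type macrophages. Per kilobase of exonic length, *Apoe* led with 4664 ± 285 CPM per kb (SD, n = 3), ahead of *Pltp* at 479 ± 58.1, *Abca1* at 72.5 ± 9.11, *Apoc2* at 54.8 ± 4.10 and *Nr1h2* at 51.8 ± 2.45 CPM per kb. Next came *Lpcat3* at 26.3 ± 1.88, *Abcg1* at 23.3 ± 1.53, *Mylip* at 22.9 ± 1.34 and *Nr1h3* at 18.1 ± 3.35 CPM per kb. *Apoc1* was last at 0.768 ± 0.220 CPM per kb. The libraries of *Apoc2* and *Nr1h2* overlapped in this order, as did those of *Lpcat3* and *Abcg1*, *Abcg1* and *Mylip*, and *Mylip* and *Nr1h3*, whereas the other neighbours were apart. With the longest transcript as the length, *Nr1h2* stood at 87.0 CPM per kb and moved from place 5 to place 3. In *Scd2*-m/-m macrophages *Apoe* was still the highest, at 1639 ± 108 CPM per kb, and *Abcg1* moved from place 7 to place 6 with 38.3 ± 3.61 CPM per kb.

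**Figure D1:**
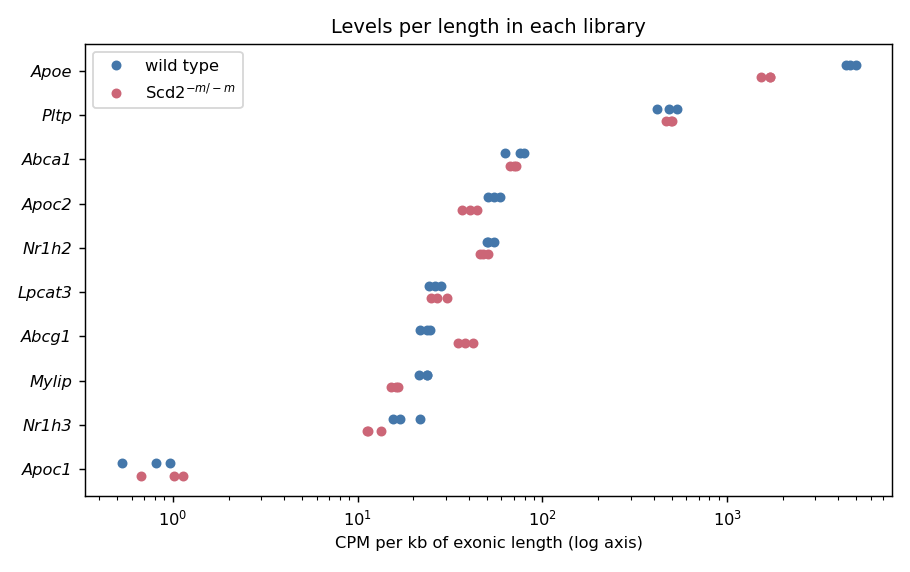
Level of each gene per kilobase of exonic length (CPM per kb, log axis), with 1 point per library in wild-type and *Scd2*-m/-m macrophages. *Apoe* lies far above the rest in both genotypes, and *Apoc1* is below 1.14 CPM per kb in all 6 libraries.

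*Apoe*, *Apoc2*, *Mylip* and *Nr1h3* were lower, and *Abcg1* was higher, in *Scd2*-m/-m than in wild-type macrophages, whereas the libraries of the genotypes overlapped for *Abca1*, *Pltp*, *Lpcat3*, *Nr1h2* and *Apoc1*. At an FDR below 0.05, 5 of the 10 genes were called, 1 higher and 4 lower, beside 17.5% of all tested genes, with 9.65% called higher and 7.84% lower. The libraries of the genotypes did not overlap for the same 5 genes, beside 34.9% of all tested genes. Since this contrast chose the genes, nothing is read from these counts. Their median log2 fold change was -0.08, against 0.004 over all tested genes.

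**Figure D2:**
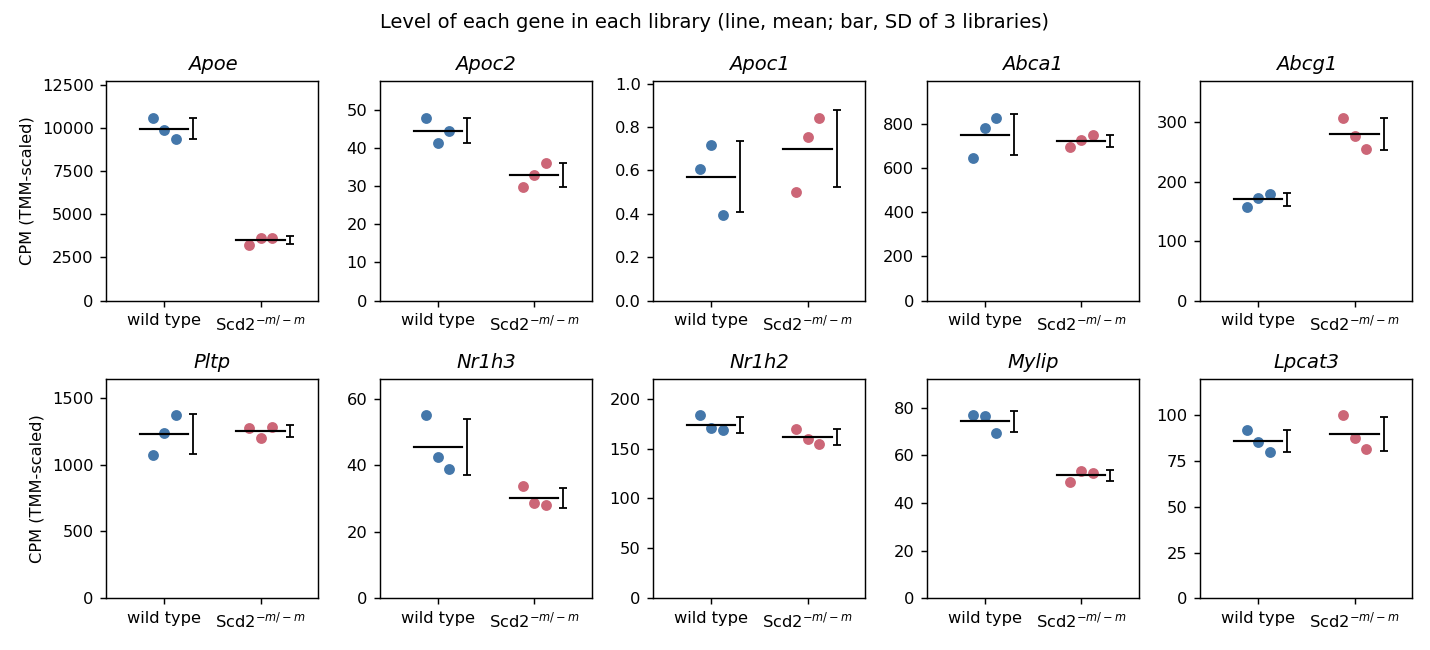
Level of each of the 10 genes in every library (CPM), with 1 panel per gene, points for the 3 wild-type and 3 *Scd2*-m/-m libraries and a line at each group mean. The groups are apart for *Apoe*, *Apoc2*, *Mylip*, *Nr1h3* and *Abcg1* and overlap for the other 5 genes.

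*Apoe* (chromosome 7, GRCm38, bases 19696109 to 19699188) encodes the apolipoprotein by which macrophages carry exported lipid and by which lipoprotein remnants are taken up. Its level was 10608, 9918 and 9392 CPM in the wild-type libraries and 3238, 3646 and 3630 CPM in the *Scd2*-m/-m libraries, each in order of replicate. Every *Scd2*-m/-m library was thus far below every wild-type library, and the mean was 35.1% of the wild-type mean. The log2 fold change was -1.51 ± 0.08 (SE, n = 3 per genotype), and it ranged from -1.55 to -1.46 when each library was left out in turn. By mean CPM, *Apoe* held rank 5 among all tested genes in wild-type macrophages and rank 15 in *Scd2*-m/-m macrophages. It took 0.930 to 1.04% of all counts in wild-type and 0.326 to 0.371% in *Scd2*-m/-m libraries. In bulk libraries, fewer cells of a type and less RNA per cell cannot be told apart.

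*Apoc2* and *Apoc1* lie next to *Apoe* on the same strand. *Apoc2* encodes the cofactor of lipoprotein lipase. The wild-type libraries gave 47.9, 41.3 and 44.4 CPM of *Apoc2*, and the *Scd2*-m/-m libraries 29.7, 32.8 and 36.0 CPM. All 3 *Scd2*-m/-m libraries were lower, but the log2 fold change of -0.44 ± 0.08 was much smaller than that of *Apoe*. The ratio of *Apoe* to *Apoc2* counts within a library, which needs no scaling, accordingly went from 224 ± 14.6 in wild-type to 107 ± 5.37 (SD, n = 3) in *Scd2*-m/-m macrophages. Of the exonic bases of *Apoc2*, 79.5% are shared with the annotated gene *Gm44805* on the same strand, so how reads were divided between them is uncertain. *Apoc1*, a small apolipoprotein of the same family, rested on 20 to 49 counts per library. Its levels of 0.394 to 0.716 CPM in wild-type and 0.502 to 0.843 CPM in *Scd2*-m/-m libraries overlapped. With a log2 fold change of 0.30 ± 0.34, a difference was not detected on these few counts.

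*Abcg1* (chromosome 17, bases 31057675 to 31117988) encodes a transporter that passes cholesterol to high-density lipoprotein. It had 158, 173 and 180 CPM in the wild-type libraries and 308, 277 and 255 CPM in the *Scd2*-m/-m libraries. Every *Scd2*-m/-m library exceeded every wild-type library, the mean was 165% of the wild-type mean, and the log2 fold change was 0.72 ± 0.07. Leaving out each library in turn gave 0.64 to 0.78. The ratio of *Apoe* to *Abcg1* counts brings both differences together and was 59.0 ± 7.58 in wild-type and 12.6 ± 1.91 (SD, n = 3) in *Scd2*-m/-m macrophages.

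*Abca1* encodes the partner exporter, which loads cholesterol and phospholipid onto lipid-poor apolipoprotein A-I. Its level was 646, 779 and 828 CPM in wild-type and 694, 729 and 748 CPM in *Scd2*-m/-m libraries. All 3 *Scd2*-m/-m values lay between the lowest and the highest wild-type value, and the log2 fold change was -0.05 ± 0.08. The ratio of *Abca1* to *Abcg1* counts was 4.41 ± 0.27 in wild-type and 2.61 ± 0.34 (SD, n = 3) in *Scd2*-m/-m macrophages.

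*Pltp* and *Lpcat3* act on phospholipids. *Pltp*, whose product moves phospholipid between lipoproteins, had 1072, 1239 and 1369 CPM in wild-type and 1276, 1198 and 1281 CPM in *Scd2*-m/-m libraries, a log2 fold change of 0.03 ± 0.08. *Lpcat3*, whose product adds polyunsaturated acyl chains to lysophospholipids, had 92.2, 85.7 and 79.9 against 100.1, 87.6 and 81.7 CPM, a log2 fold change of 0.06 ± 0.08. The genotypes overlapped for both genes. *Pltp* shares 19.3% of its exonic bases with *Ctsa* on the opposite strand and *Lpcat3* shares 10.2% with *Emg1*, and since the sources used here do not state whether counting used strand, reads there cannot be assigned with certainty.

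*Mylip* encodes the ubiquitin ligase, also called IDOL, that marks lipoprotein receptors for degradation. It had 76.7, 76.7 and 69.2 CPM in the wild-type libraries and 48.8, 53.3 and 52.4 CPM in the *Scd2*-m/-m libraries. The groups were well apart, with a log2 fold change of -0.53 ± 0.07.

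Of the receptors themselves, *Nr1h3* was lower and the libraries of *Nr1h2* overlapped. *Nr1h3* (LXRα) had 55.0, 42.4 and 39.0 CPM in wild-type and 33.6, 28.6 and 28.1 CPM in *Scd2*-m/-m libraries. The groups did not overlap, though wild-type replicate 1 stood well above its fellows, and the log2 fold change was -0.59 ± 0.13, with a range of -0.70 to -0.44 when each library was left out. *Nr1h2* (LXRβ) had 183, 170 and 168 against 170, 160 and 155 CPM, overlapping, with a log2 fold change of -0.11 ± 0.06. The ratio of *Nr1h2* to *Nr1h3* counts was 3.89 ± 0.50 in wild-type and 5.39 ± 0.28 (SD, n = 3) in *Scd2*-m/-m macrophages. Without *Scd2*-m/-m replicate 3, *Nr1h3* was no longer below the FDR threshold and 4 of the 10 genes were called.

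**Figure D3:**
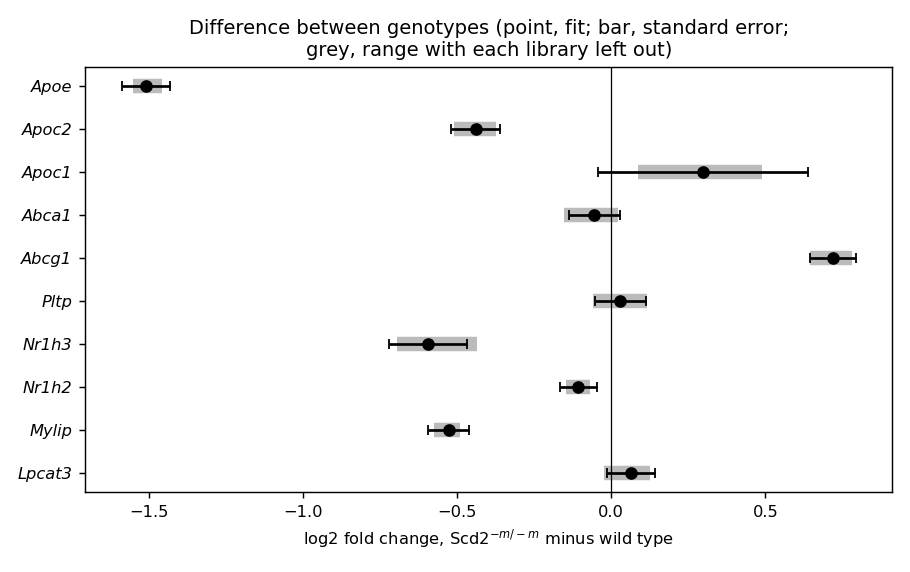
Difference between genotypes for each gene (log2 fold change, *Scd2*-m/-m minus wild-type), with points for the fit, black bars for its standard error and grey bands for the range with each library left out in turn. *Apoe* at -1.51 and *Abcg1* at 0.72 lie at opposite ends, and the bands of *Abca1*, *Pltp* and *Lpcat3* cross 0.

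Libraries of one genotype also differed among themselves in these genes. Wild-type replicate 1 had the highest level of 6 of the 10 genes, *Apoe*, *Apoc2*, *Mylip*, *Nr1h3*, *Nr1h2* and *Lpcat3*, and the lowest of the 3 transport genes *Abca1*, *Abcg1* and *Pltp*. Among *Scd2*-m/-m libraries, replicate 1 was highest in 4 genes, *Abcg1*, *Nr1h3*, *Nr1h2* and *Lpcat3*, and lowest in 5, *Apoe*, *Apoc1*, *Apoc2*, *Mylip* and *Abca1*. *Apoe* and *Nr1h3* were thus highest in the same wild-type library but not in the same *Scd2*-m/-m library. In both genotypes *Nr1h3*, *Nr1h2* and *Lpcat3* were highest in replicate 1 and lowest in replicate 3, and *Abca1* the reverse. *Abcg1* was highest in wild-type replicate 3 but in *Scd2*-m/-m replicate 1.

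To see whether other genes around *Apoe* differed, the genes starting within 100 kb of its start on chromosome 7 were tested. Of 7 tested genes outside the set, 2 were lower and 0 higher by edgeR, beside 7.84% of all tested genes called lower and 9.65% higher. Of the 7, 4 had an unadjusted p below 0.05, and 2 were called by DESeq2 and by limma-voom with and without quality weights. *Relb*, an NF-κB subunit, fell by 0.38 on the log2 scale, with 96.0 ± 3.31 against 73.8 ± 2.95 CPM (SD, n = 3, edgeR FDR 5.86e-04). *Nectin2*, a cell adhesion molecule, fell by 0.40, with 22.8 ± 0.778 against 17.4 ± 0.753 CPM (edgeR FDR 0.00187). Both kept their call in all 15 alternative settings. The other 5, *Tomm40*, *Clptm1*, *Clasrp*, *Bcam* and *Gm26890*, had log2 fold changes of -0.76 to 0.19 and did not pass the test. The lowest, *Bcam* at -0.76 ± 0.28, rested on only 38 to 98 counts per library. None of the 7 approached the -1.51 of *Apoe*, and *Tomm40*, whose start lies closest to that of *Apoe*, was at -0.16 ± 0.08 (edgeR FDR 0.198).

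**Figure D4:**
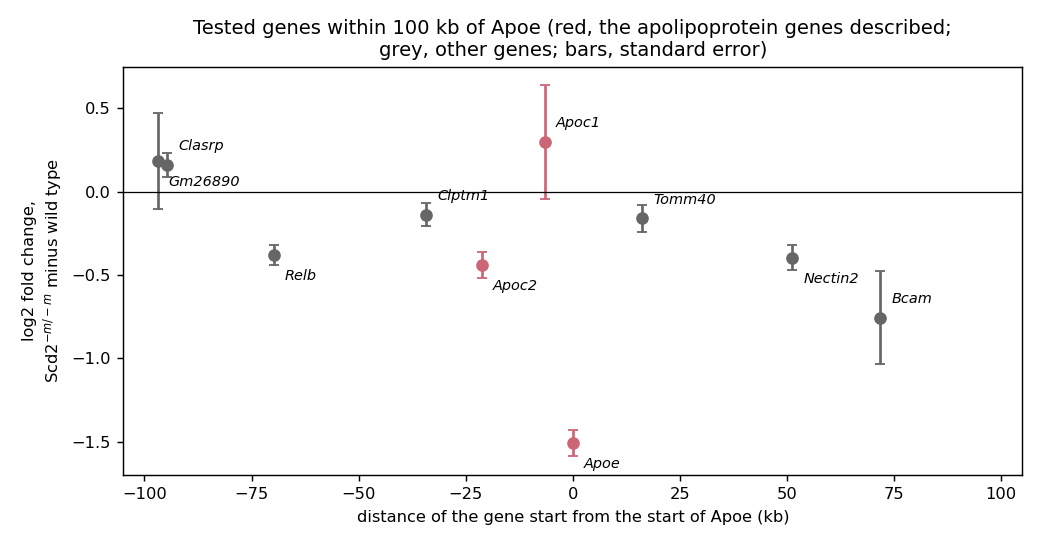
Log2 fold change (*Scd2*-m/-m minus wild-type, bars for the standard error) of tested genes by the distance of their start from that of *Apoe* (kb), with the *Apoe* cluster in red and other genes in grey. *Apoe* at -1.51 stands below all neighbours, of which *Bcam* at -0.76, on 38 to 98 counts per library, is the next lowest.

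The other genes of the pathway were followed in 8 lists, from the receptors' partners to the genes of cholesterol synthesis, written with earlier results of these data known. Of their 112 genes 94 were tested, and 22 of these (23.4%) passed an FDR of 0.05, 10 higher and 12 lower, beside 17.5% of all tested genes, with 9.65% higher and 7.84% lower. The count was 10 without wild-type replicate 2 and 13 without *Scd2*-m/-m replicate 2. The median log2 fold change of the 94 genes was -0.03, against 0.004 over all genes. By list, the share called ran from 0 to 43.8%, and the counts of each list below stand beside the same 17.5%.

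Among partners and coregulators of LXR, 16 genes were tested, of which 1 rose and 4 fell. *Rxra*, the retinoid X receptor that pairs with LXR, had 113 to 116 CPM in wild-type and 66.5 to 71.2 CPM in *Scd2*-m/-m libraries. It fell by 0.72 on the log2 scale (SE 0.06, edgeR FDR 1.94e-06), and its libraries did not overlap between the genotypes. *Rxrb*, which can also pair with LXR and was named after its values were seen, had 88.2 to 92.7 CPM in wild-type and 78.3 to 89.5 CPM in *Scd2*-m/-m libraries, which overlapped (log2 fold change -0.10 ± 0.06, edgeR FDR 0.326). *Tbl1xr1*, a subunit of the corepressor complex, rose from 90.1 ± 4.35 to 113 ± 5.79 CPM (log2 fold change 0.33, edgeR FDR 0.00236). The acetyltransferase *Ep300* and the coactivator *Ncoa2*, the latter named after its values were seen, also fell, *Ep300* by 0.20 on the log2 scale (edgeR FDR 0.0243). The call of *Ep300* was lost without wild-type replicate 2 or *Scd2*-m/-m replicate 2, its FDR over 15 alternatives being 0.00144 to 0.140.

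Of 6 tested genes that make or remove LXR ligands, 2 fell and 0 rose. *Abcc1*, an exporter, fell by 0.24 on the log2 scale (edgeR FDR 0.0189), and lost its call in 4 of the settings that left out a library, with an FDR of up to 0.0822 over 15 alternatives.

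Of 17 other LXR-responsive genes tested, 2 rose and 2 fell. *Cd5l*, a secreted macrophage protein also called AIM, rose from 17.4 ± 0.913 to 82.1 ± 9.29 CPM (log2 fold change 2.24 ± 0.09, edgeR FDR 2.79e-09). *Arl4c*, a small GTPase linked to cholesterol export, fell from 196 ± 4.07 to 143 ± 6.20 CPM (log2 fold change -0.46, edgeR FDR 1.02e-04). *Mertk*, the receptor for engulfing dying cells, fell by 0.33 on the log2 scale (edgeR FDR 0.00384), and *Mid1ip1*, a regulator of lipogenesis, rose by 0.24 (edgeR FDR 0.0107). *Cd5l*, *Arl4c* and *Mertk* kept their calls in 15 of 15 alternatives, and *Mid1ip1* lost its call without wild-type replicate 2 or *Scd2*-m/-m replicate 2 (FDR up to 0.0620). Genes of this list thus moved in both directions.

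For cholesterol movement and storage within the cell, 16 genes were tested, of which 5 rose and 2 fell. *Soat1*, which esterifies cholesterol for storage, rose from 348 ± 2.73 to 418 ± 20.6 CPM (log2 fold change 0.26, edgeR FDR 0.00775) and kept its call in 15 of 15 alternatives. The transporter *Abca5* and the sterol carrier *Gramd1c*, at no more than 3.23 CPM on average, rose by 0.84 and 1.54 on the log2 scale (edgeR FDR 0.0126 and 0.0346). *Nceh1*, which hydrolyses cholesterol esters, and *Gramd1b* also rose and were named after their values were seen. The transporters *Abca2* and *Abca7* fell by 0.27 and 0.21 on the log2 scale (edgeR FDR 0.0289 and 0.0493). *Abca7* kept its call in 6 of 15 alternatives and *Gramd1c* in 5 of 13, with FDRs of up to 0.217 and 0.177, whereas *Abca5* kept it in 13 and *Abca2* in 11 of 15 (up to 0.0708 and 0.128).

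Lipoprotein receptors and the partners of *Mylip* gave 0 calls among 11 tested genes by edgeR, with 3 at an unadjusted p below 0.05, 1 call each by DESeq2 and limma-voom and 2 with quality weights. Of 18 SREBP2 targets of cholesterol synthesis, only *Srebf2*, which encodes the regulator itself, passed the edgeR test, falling from 421 ± 27.5 to 326 ± 31.3 CPM (log2 fold change -0.37, edgeR FDR 0.00404). In that list 3 genes had an unadjusted p below 0.05, and DESeq2 called 2, limma-voom 1 and limma-voom with quality weights 5. Among 5 lysophospholipid acyltransferases, relatives of *Lpcat3*, *Mboat1* rose by 0.62 (edgeR FDR 0.00419) and *Lpcat2* fell by 0.40 on the log2 scale (edgeR FDR 0.00329). Of 5 other apolipoproteins and lipid carriers, *Apool*, a mitochondrial inner membrane protein, rose by 0.38 (edgeR FDR 0.0251), with a call in 12 of 15 alternatives and an FDR of up to 0.0972 without *Scd2*-m/-m replicate 3.

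**Figure D5:**
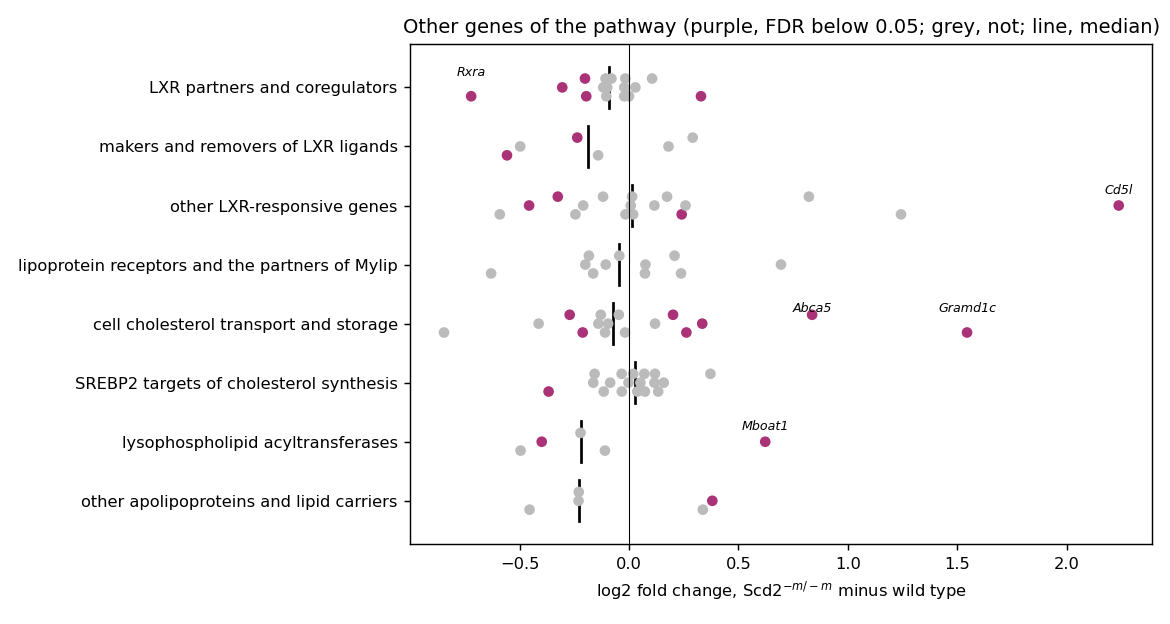
Log2 fold changes (*Scd2*-m/-m minus wild-type) of the 94 tested pathway genes in 8 lists, with 1 point per gene, purple where the edgeR FDR was below 0.05 and a black line at each list's median. Calls lie on both sides of 0, from *Rxra* at -0.72 to *Cd5l* at 2.24.

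To find genes with a like pattern, the log2 CPM profiles of 11800 genes over the 6 libraries, each centred on its own mean, were compared with those of *Apoe* and *Abcg1* by root-mean-square distance. Nearest to *Apoe* were *Fpr2*, a formyl peptide receptor, at a distance of 0.0718, then *Nuak1*, a kinase, at 0.0967, *Thbs1*, which encodes thrombospondin 1, at 0.109, *Lyz2* at 0.117 and *Fzd1*, a Wnt receptor, at 0.120. *Fpr2*, for example, had 20.7 to 24.8 CPM in wild-type and 6.58 to 8.43 CPM in *Scd2*-m/-m libraries. Nearest to *Abcg1* were *Cadps2*, a vesicle release factor, at 0.0539, *Tmod1*, an actin-capping protein, at 0.0569, *Anpep*, an aminopeptidase, at 0.0655, *Srgap3*, a GTPase-activating protein, at 0.0669 and *Galnt12*, a glycosyltransferase, at 0.0699. *Anpep* had 915 to 939 CPM in wild-type and 1468 to 1637 CPM in *Scd2*-m/-m libraries. These distances include the genotype difference itself and are a description of 6 libraries.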

How the data were processed

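Gene counts of 3 wild-type and 3 *Scd2*-m/-m BMDM libraries were used. The authors ran STAR against GRCm38 (Ensembl) and deposited raw whole-number counts per gene. The sources used here do not name the counter or its strand setting. Their table of edgeR and limma comparisons (fold changes, p-values, log2 CPM) was not used. Of 40757 entries, 276 repeats of a gene were removed, leaving 40481 genes, and 99.7% were found in GENCODE M21, the source of coordinates and exonic lengths. Of counts from 1 to 20, 60.9 to 64.9% were even, so what 1 count stands for is uncertain.

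The comparison used edgeR 4.0.16 in R 4.3.3 (filterByExpr, TMM factors of 0.979 to 1.02, robust glmQLFit, glmQLFTest) with Benjamini-Hochberg adjustment over 14778 genes and an FDR threshold of 0.05. CPM are TMM-scaled. The alternatives were RLE and upper-quartile factors, DESeq2 1.42.0, limma 3.58.1 (voom, plain or weighted by library quality), a looser and a stricter filter, halved counts, a replicate block and each library left out in turn. The members and lists were chosen with earlier results of these data known. Named genes were the 10 members, *Scd2*, up to 3 called genes per direction with the smallest p in each list, tested genes within 100 kb of *Apoe*, and the 5 profiles nearest to *Apoe* and to *Abcg1* among genes with a mean of at least 1 CPM. Some genes that the rule selects are not reported here.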

Additional observations from a re-analysis of the deposited data

How the results depend on the processing

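All 10 members moved by less than the spread between replicates under all 15 alternatives (150 values). For the settings that left out a library, this outcome was fixed in advance. Removing any of 3 libraries shifts a group mean by less than that spread, so the comparison cannot show stability there. *Nr1h3*, for example, ranged from -0.70 to -0.44 in those settings. *Apoe* and *Abcg1* kept their direction in each of the 15 alternatives. *Abca1*, *Pltp* and *Lpcat3*, all near 0, changed sign in some settings that left out a library, and *Pltp* also with limma-voom and quality weights (-0.02). *Nr1h3* was called in 14 of 15, without *Scd2*-m/-m replicate 3 being the exception. Over all genes, 2585 calls became 4507 with limma-voom and quality weights, and the 22 calls in the pathway lists became 41. Leaving out each library gave 1440 to 2567 calls over all genes and 10 to 25 in the lists. The lowest totals were 1440 without *Scd2*-m/-m replicate 2 and 1490 without wild-type replicate 2, where the lists had 13 and 10 calls. With the replicate number as a block there were 2974 and 30 calls. Deviations from the group mean had r of 0.10, -0.05 and 0.08 between same-numbered libraries and -0.14 to 0.07 between the others. Such small values cannot decide whether the numbers pair the samples. Of 21 genes outside the set that the rule for named genes selects, 12 kept their call in every alternative run, 9 lost it in 36 of 313 gene and setting pairs, and 0 reversed. The causes were not tested. *Apoc1* rested on only 20 to 49 counts per library, and low depth was not separated from spread between replicates.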
